A study of Rattus norvegicus with 12 samples.

Results

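The 10 genes described here handle cholesterol that a cell takes up, moves or exports, and most of them answer to the liver X receptors (LXR). They were chosen by name from the table of normalized counts, and all 10 of them are among its 12271 genes. They comprise the receptors Nr1h3 and Nr1h2, the exporters Abca1 and Abcg1, the lipid carrier Apoe, the ubiquitin ligase Mylip, the phospholipid enzyme Lpcat3, the lysosomal proteins Npc1 and Npc2, and the esterifying enzyme Soat1. LXRs are nuclear receptors that bind oxysterols, which are oxidized forms of cholesterol, and act with a retinoid X receptor (RXR) partner on a DNA element of a pair of direct repeats. Activated LXR raises the exporters and the carrier that remove cholesterol, and raises Mylip, which marks lipoprotein receptors for degradation. Cholesterol that arrives in lysosomes leaves through Npc2 and Npc1, and what exceeds the need of the membranes is stored as ester by Soat1. Macrophages use this pathway heavily, so macrophage markers were read in the libraries as well.

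RNA was sequenced from ventricular cardiac fibroblasts of Sprague Dawley rats at postnatal day 2, cultured per the labels in medium with 15% serum. Per the labels they received after 16 hours universal negative control siRNA, Yap siRNA, Wwtr1 siRNA or both, and RNA was taken 48 hours later. The study's methods give less serum, a longer wait before transfection and a medium change after it, and in one passage a later collection, and these differences were not resolved here. Each target was hit with 2 siRNAs at 25 nM each, and 3 libraries were made for each of the 4 groups, 12 in total, from separate litters per the study. Yap (gene Yap1) and Wwtr1 (also called Taz) are transcriptional coactivators of the Hippo pathway. The cells given negative siRNA are called the controls, and those given both siRNAs the double knockdown. Its siRNA label names the Wwtr1 siRNAs only, and the design text speaks of myocytes where titles and labels speak of fibroblasts, so both points were checked in the values.

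The targeted genes were lower in the groups whose titles name them. Yap1 was 2984 to 3776 normalized counts in the controls, 532 to 625 after Yap knockdown and 3151 to 3184 after Wwtr1 knockdown, and 713, 739 and 1474 in double knockdown replicates 1, 2 and 3. Wwtr1 was 2280 to 2565, 2134 to 2500 and 524 to 637 in the same 3 groups and 731 to 1056 in the double knockdown. Recovered totals were 33.9 to 41.1 M reads per library. The 10 fibroblast markers held 7.50 to 10.5% of the normalized counts of a library, 11 cardiomyocyte markers 0.115 to 0.271% and 10 endothelial markers 0.00338 to 0.00825%, so fibroblast markers held the largest share and those of other heart cells were not at 0.

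Macrophage markers were detected in every library. Of 23 macrophage markers 22 were in the table, and their summed level was 35687 to 51482 normalized counts in the controls, 31545 to 46357 after Yap knockdown and 20784 to 32223 after Wwtr1 knockdown. It was 12512, 23240 and 75972 in double knockdown replicates 1, 2 and 3, so these libraries held both the lowest and the highest sums of all. The defining markers Ptprc (the leukocyte antigen CD45), Csf1r (the receptor for macrophage growth factor), Adgre1, Cd68, Mrc1 and C1qa were above 0 in all 12 libraries. Cx3cr1, the fractalkine receptor, was at 0 in double knockdown replicate 1 and was the 1 marker of 22 called, with a log2 fold change of -4.69 in the double knockdown (adjusted p from limma 0.00647). Without double knockdown replicate 3, 18 of the 22 markers were lower than in the controls by the same test, where 17.2% of all genes were lower. That library also had the highest Yap1 of its group and differed from its replicates over all genes more than any other library did. Results that rest on it are given below with and without it. In RNA from a whole dish, fewer cells of a type and less RNA per cell cannot be told apart.

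The sequence before the genes was read to show where an LXR element could lie. RefSeq windows on build GRCr8, from 250 bases before to 50 bases after an annotated start, were found by symbol for 9 of the 10 genes, with no entry for Abcg1. The element searched on both strands was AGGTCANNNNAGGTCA, a pair of repeats with 4 letters between them. With at most 2 mismatches it was in none of the 9 genes and in 2.93% of the 33469 windows of the rat. With at most 3 mismatches, a limit chosen after the stricter search, it was in 3 genes, Abca1, Npc1 and Npc2, and in 21.9% of all windows. The letters GGAATG, the core bound by the Tead factors that carry Yap and Wwtr1 to DNA, were in 1 of the 9 genes (Apoe) and in 14.2% of windows. The windows of Abca1 and Nr1h3 are shown because Abca1 is the classical LXR target, with its nearest match in capitals (read on the opposite strand, its first base 70 bases before the start), and Nr1h3 is the receptor gene that rose most. Abca1 lies at chr5:72596424-72596723 and Nr1h3 at chr3:97623180-97623479, both on the minus strand, and neither motif was in the Nr1h3 window.
Abca1: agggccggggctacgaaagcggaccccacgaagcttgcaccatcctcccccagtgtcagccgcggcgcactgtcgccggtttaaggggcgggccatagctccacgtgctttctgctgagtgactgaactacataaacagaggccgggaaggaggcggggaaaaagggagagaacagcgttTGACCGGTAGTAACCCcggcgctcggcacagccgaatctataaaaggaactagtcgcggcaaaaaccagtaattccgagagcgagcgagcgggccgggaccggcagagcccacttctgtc
Nr1h3: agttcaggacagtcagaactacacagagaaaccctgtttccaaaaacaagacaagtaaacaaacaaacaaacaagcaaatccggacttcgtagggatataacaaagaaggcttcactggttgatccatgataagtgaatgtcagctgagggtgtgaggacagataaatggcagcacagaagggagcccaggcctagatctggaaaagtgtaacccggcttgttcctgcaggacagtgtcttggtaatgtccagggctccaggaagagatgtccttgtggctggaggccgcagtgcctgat
A match is a likeness of letters only, and elements farther from the start were not searched.

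Each knockdown was compared against the controls to ask how far depletion of Yap, Wwtr1 or both changed these transcripts. Abcg1, Nr1h3, Npc1 and Lpcat3 were higher in the double knockdown. After Yap knockdown alone Abcg1 was higher and Npc1 lower, and after Wwtr1 knockdown alone no member passed the test. Calls were made with limma on log2(normalized count + 1) over the 11871 genes with a mean of at least 10, at a Benjamini-Hochberg adjusted p under 0.05. Values below are normalized counts in replicates 1, 2 and 3, and every log2 change is a difference of log2(value + 1). In the double knockdown 4 of the 10 members were called, all 4 higher, where 32.8% of all genes tested were called and 17.1% were called higher. Yap siRNA called 2 members, against 4.8% of all genes. Wwtr1 siRNA called 0 with limma, with edgeR and with DESeq2, against 8.96% of all genes by limma, and 1 member (Mylip) had an unadjusted p under 0.05. A limma fit that paired same-numbered libraries of these groups and the controls called Npc2 after Wwtr1 siRNA (adjusted p 0.00515, 21.3% of all genes called). After Yap siRNA it added Abca1 and Apoe (adjusted p 0.0452 and 0.00845, 16% of all genes called). The median log2 fold change of the members was 0.12 after Yap knockdown, 0.00085 after Wwtr1 knockdown and 0.27 in the double knockdown, where the medians of all genes were -0.0041, 0.0047 and 0.0035. The 3 comparisons share the control libraries and are not independent.

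**Figure D1:**
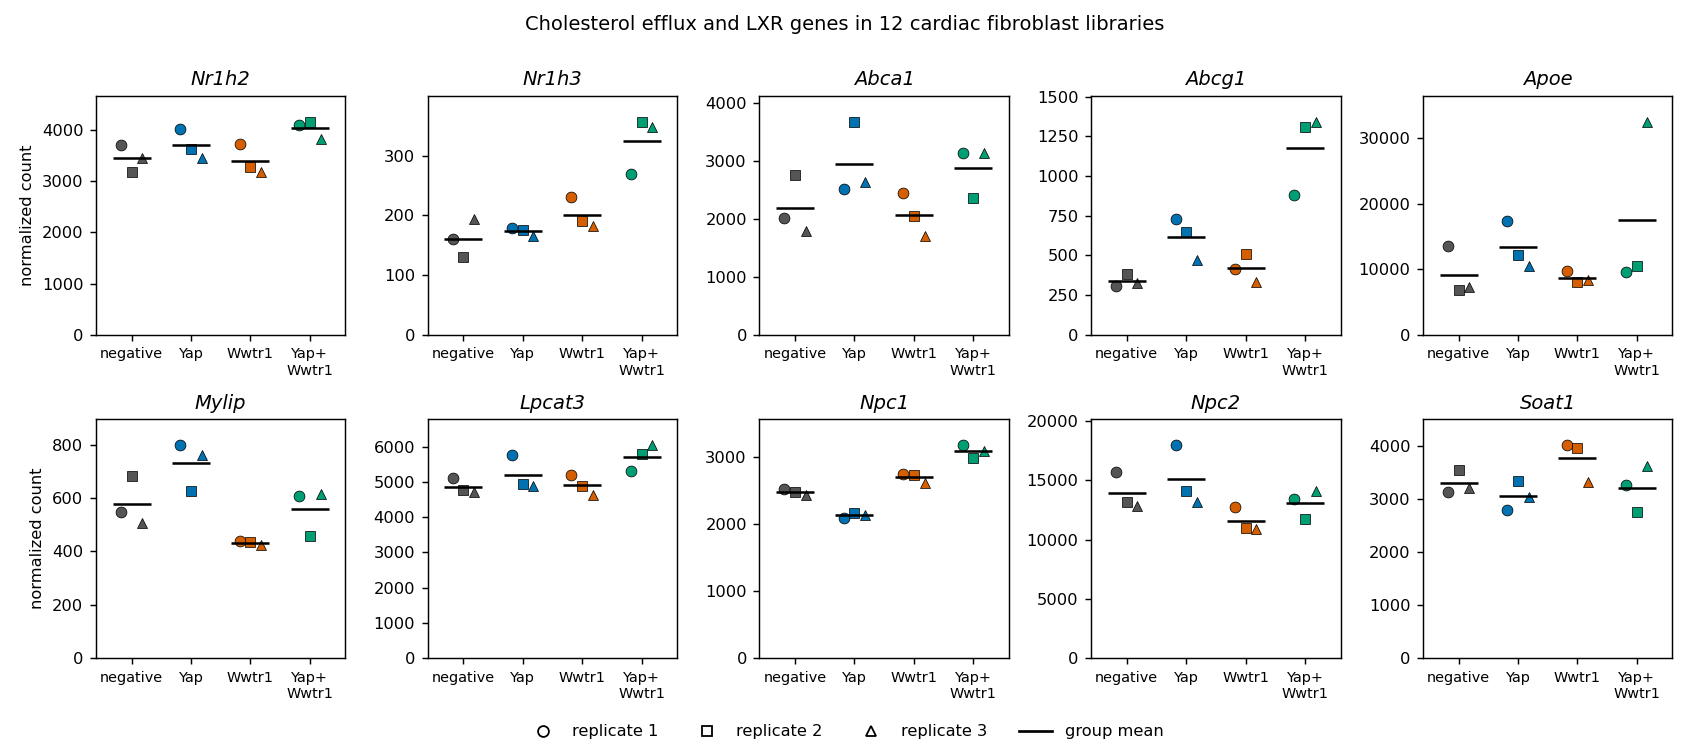
Normalized counts (linear axes from 0) of the 10 genes in each of the 12 libraries, by siRNA group; markers give the replicate and black lines the group mean. Abcg1 and Nr1h3 lie higher in every double knockdown library than in any other library, Npc1 forms 4 bands that do not overlap, and Apoe has 1 library at 32563.

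Nr1h3 (LXR alpha), the form abundant in liver and macrophages, was 160, 130 and 193 in the controls, 179, 176 and 165 after Yap knockdown, 231, 190 and 183 after Wwtr1 knockdown, and 269, 357 and 347 in the double knockdown. The 3 double knockdown libraries lay above all 9 others, and the single knockdowns overlapped the negative control. Nr1h3 rose in the double knockdown with a log2 fold change of 1.01 (SE 0.18, 2.02-fold, adjusted p from limma 0.00126), and it stayed called in all 12 fits that left out 1 library. With a single siRNA the log2 changes were 0.12 (SE 0.18) and 0.33 (SE 0.18), and neither passed (adjusted p from limma 0.760 and 0.289). Nr1h2 (LXR beta), which most tissues express, was 3713, 3175 and 3457 in the controls and 4106, 4167 and 3828 in the double knockdown. These did not overlap, but the log2 change of 0.23 (SE 0.086) missed the threshold (adjusted p from limma 0.0606). It was past it without negative siRNA replicate 1 (0.28, adjusted p 0.0448), without Wwtr1 siRNA replicate 1 (0.0495) and with DESeq2 (0.0495). It was also past it in limma with same-numbered libraries of all 4 groups paired (0.0220). The range was 0.0220 to 0.197 over all alternatives. In the single knockdowns Nr1h2 lay between 3177 and 4020 and overlapped the controls.

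The exporters moved unequally. Abcg1, which passes cholesterol to mature HDL, was 307, 386 and 329 in the controls, 729, 649 and 472 after Yap knockdown, 417, 507 and 330 after Wwtr1 knockdown, and 880, 1312 and 1343 in the double knockdown. Every Yap siRNA library was above every control and every double knockdown library above every other library, and Wwtr1 siRNA overlapped the control. The double knockdown raised Abcg1 by 1.77 on the log2 scale (SE 0.21, 3.41-fold, 95% confidence interval 2.48 to 4.69-fold, adjusted p from limma 0.000103), the largest change among the members, and all 12 fits without 1 library called it. Yap siRNA raised it by 0.84 (SE 0.21, 1.79-fold, adjusted p from limma 0.0450). This call sat near the threshold. It was lost in 8 of the 12 fits without 1 library (without any of negative siRNA 1, 2 and 3, Yap siRNA 1 and 2, Wwtr1 siRNA 1 and 2 or double knockdown 2), where the log2 change stayed at 0.71 to 0.93 with adjusted p values of 0.0559 to 0.176, and also with upper-quartile scaling (0.0509) and with no trend (0.0809). After Wwtr1 knockdown the change was 0.28 (SE 0.21, adjusted p from limma 0.465).

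Abca1, which loads cholesterol onto lipid-poor apolipoprotein A-I, was 2018, 2754 and 1786 in the controls, 2507, 3676 and 2635 after Yap knockdown, 2440, 2049 and 1699 after Wwtr1 knockdown, and 3140, 2360 and 3129 in the double knockdown. Control replicate 2 lay inside the range of the Yap siRNA and the double knockdown libraries. The log2 changes were 0.43 after Yap knockdown and 0.41 in the double knockdown (SE 0.20 for both, adjusted p from limma 0.250 and 0.134), and -0.07 after Wwtr1 knockdown. Without negative siRNA replicate 2 the double knockdown value was 0.59 and passed (adjusted p from limma 0.0456, in a range of 0.0456 to 0.383 over all alternatives). In the fit that paired same-numbered libraries of the 3 other groups as a replicate block (16% of all genes called), Abca1 after Yap knockdown passed as well (0.43, adjusted p from limma 0.0452, in a range of 0.0452 to 0.574).

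Apoe, the apolipoprotein that carries the exported lipid, was the most variable member. It was 13521, 6790 and 7278 in the controls, 17450, 12174 and 10496 after Yap knockdown, 9787, 8024 and 8334 after Wwtr1 knockdown, and 9512, 10491 and 32563 in the double knockdown. Each knockdown group overlapped the controls, and the high library was double knockdown replicate 3, the one with the highest macrophage sum. Its log2 change in the double knockdown was 0.76 (SE 0.40, adjusted p from limma 0.172), and 0.19 without that library (adjusted p 0.611). With a macrophage score as covariate it was 1.21 and passed (adjusted p from limma 0.00201, in a range of 0.00201 to 0.611 over all alternatives). After Yap knockdown it was 0.58 (SE 0.40, adjusted p from limma 0.475), and with the replicate block it passed (adjusted p 0.00845, in a range of 0.00845 to 0.770). The part of macrophage content in the Apoe values was not tested beyond this covariate.

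**Figure D2:**
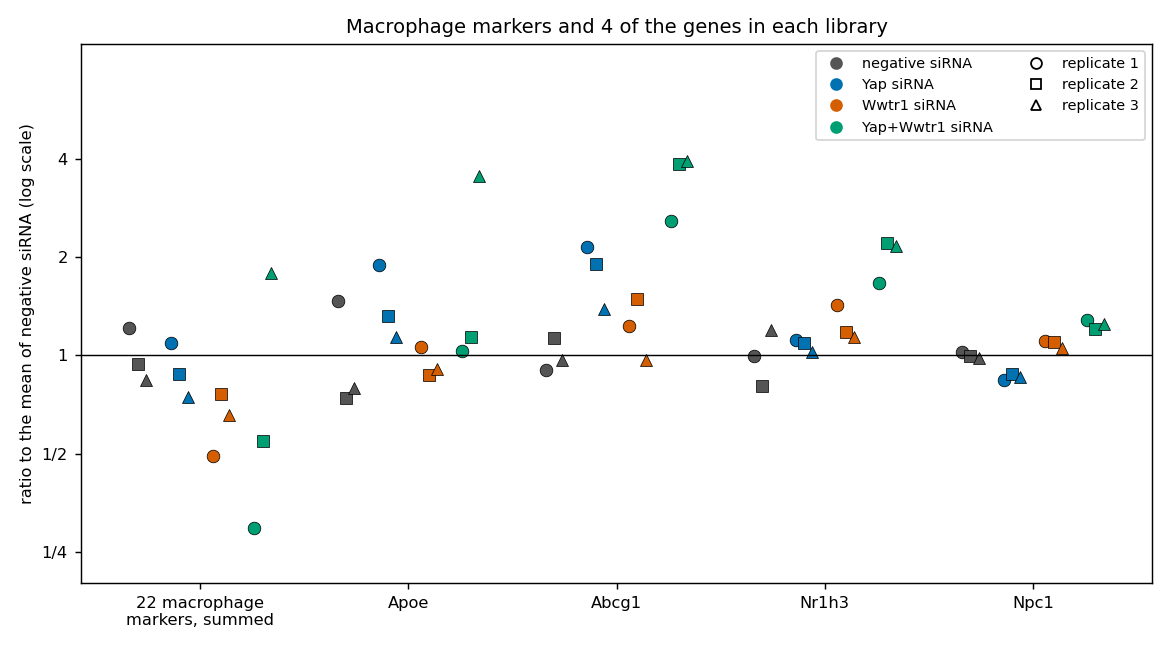
Ratio of each library to the mean of negative siRNA, on a log axis, for the sum of 22 macrophage markers and for Apoe, Abcg1, Nr1h3 and Npc1; colours give the siRNA group and markers the replicate. The double knockdown libraries spread widely in macrophage markers and in Apoe but lie together and above 1 in Abcg1, Nr1h3 and Npc1.

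Abcg1, Nr1h3 and Npc1 were also read beside the macrophage sum. Among the double knockdown libraries replicate 1 was lowest in the sum, in Abcg1 and in Nr1h3 and highest in Npc1. Replicate 1 had 12512 for the markers and replicate 2 had 23240, both below all 3 controls, while Abcg1 (880 and 1312), Nr1h3 (269 and 357) and Npc1 (3181 and 2982) were above all of them. Without replicate 3 the log2 changes were 1.66 for Abcg1 (adjusted p from limma 0.000341), 0.96 for Nr1h3 (0.00391) and 0.31 for Npc1 (0.00381). With the macrophage score as covariate they were 1.88 (6.67e-05), 1.07 (0.00137) and 0.31 (0.00316). In these 2 fits 3 and 5 of the 10 members were called, the 5 being Apoe and the same 4 as before, where 34.2% and 33% of all genes were called. The sum of 10 interferon-induced genes also moved with the siRNA groups. It was 3701 to 7725 in the controls, 21185 to 61021 after Yap knockdown, 16899 to 82042 after Wwtr1 knockdown and 87047 to 113854 in the double knockdown, and its part in these results was not tested.

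Mylip differed between the single knockdowns, and neither of them passed the test against the controls. It was 548, 682 and 507 in the controls, 799, 628 and 763 after Yap knockdown, 438, 437 and 423 after Wwtr1 knockdown, and 607, 459 and 614 in the double knockdown. Wwtr1 siRNA lay below every control library, and the double knockdown overlapped the control. The log2 changes were 0.34 after Yap knockdown and -0.41 after Wwtr1 knockdown (SE 0.15 for both, adjusted p from limma 0.229 and 0.113), and -0.05 in the double knockdown (adjusted p 0.829). Yap against Wwtr1 siRNA gave 0.75 (SE 0.15, 1.68-fold, adjusted p from limma 0.0103), which was called in all 12 fits without 1 library. In that comparison 2 of the 10 members, Mylip and Npc1, were called, against 8.79% of all genes. With the replicate block, which called 22.6% of all genes in this comparison, 7 were called. The others were Abca1, Abcg1, Apoe and Npc2, higher after Yap knockdown (adjusted p from limma 0.000878 to 0.0183), and Soat1, lower (adjusted p 0.0166). All 22 macrophage markers also lay above 0 in this comparison (median log2 change 0.55), with 0 called in the main fit. Their part in these values was not tested.

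The receptors that Mylip marks were read at the transcript level only, since protein was not measured. Vldlr, the receptor for very-low-density lipoprotein, fell by 0.40, 0.65 and 1.52 on the log2 scale after Yap, Wwtr1 and double knockdown (adjusted p from limma 0.0456, 0.00256 and 5.98e-06). Its call after Yap knockdown was lost in 9 of the 12 fits without 1 library, all but those without Yap siRNA 3 or double knockdown 2 or 3 (-0.42 to -0.32, adjusted p 0.0512 to 0.176). Its call in the double knockdown stood in all 12.

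Lpcat3, which builds polyunsaturated phospholipids into membranes, was 5105, 4780 and 4718 in the controls and 5316, 5796 and 6048 in the double knockdown. The groups did not overlap, and the smallest gap was between control replicate 1 and double knockdown replicate 1. The rise was 0.23 on the log2 scale (SE 0.081, 1.17-fold, adjusted p from limma 0.0448). The call was lost in 6 of the 12 fits without 1 library (without any of negative siRNA 1, 2 and 3, Wwtr1 siRNA 2 and double knockdown 2 and 3, at 0.19 to 0.27 and adjusted p 0.0515 to 0.134) and in 5 of the 12 other settings, which were TMM scaling, upper-quartile scaling, edgeR, the compared groups alone and no trend (adjusted p 0.0514 to 0.0884). Both single knockdowns lay between 4641 and 5761, with log2 changes of 0.09 and 0.01 that did not pass (adjusted p from limma 0.594 and 0.952).

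The lysosomal pair differed. Npc1, the membrane protein that hands cholesterol out of lysosomes, was 2529, 2475 and 2431 in the controls, 2084, 2172 and 2131 after Yap knockdown, 2742, 2729 and 2618 after Wwtr1 knockdown, and 3181, 2982 and 3091 in the double knockdown. No pair of groups overlapped, and the order from low to high was Yap siRNA, negative siRNA, Wwtr1 siRNA and the double knockdown. Negative and Wwtr1 siRNA are the neighbours whose difference did not pass (0.12 on the log2 scale, SE 0.057, adjusted p from limma 0.219). Npc1 rose by 0.32 in the double knockdown (SE 0.057, 1.24-fold, adjusted p from limma 0.00144), called in all 12 fits without 1 library. It fell by 0.22 after Yap knockdown (SE 0.057, 0.859-fold, adjusted p from limma 0.0489), and this call stood only in the fit without double knockdown replicate 3 (adjusted p 0.0495). The other 11 fits without 1 library gave -0.23 to -0.20 with adjusted p values of 0.0563 to 0.162, and the call was also lost with the compared groups alone (0.119) and with no trend (0.0713). Yap siRNA was lower than Wwtr1 siRNA by -0.34 (SE 0.057, adjusted p from limma 0.00463).

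Npc1 in the double knockdown was above the sum of both single changes. This difference, the interaction, was 0.41 on the log2 scale (SE 0.080, adjusted p from limma 0.0399) and was the 1 call among the 10 members, against 1.03% of all genes. It stood without double knockdown replicate 3 (0.41, adjusted p 0.0477) and was lost in each of the other 11 fits without 1 library, which gave 0.39 to 0.44 with adjusted p values of 0.0531 to 0.101, and with no trend (0.0603). For Abcg1 the interaction was 0.65 (SE 0.30, adjusted p from limma 0.362) and for Nr1h3 0.56 (SE 0.25, adjusted p 0.344).

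Npc2, the soluble partner that delivers cholesterol to Npc1, was 15746, 13188 and 12830 in the controls, 17993, 14092 and 13207 after Yap knockdown, 12777, 10980 and 10863 after Wwtr1 knockdown, and 13454, 11717 and 14103 in the double knockdown. Wwtr1 siRNA lay just below the control and the other groups overlapped it. The log2 change after Wwtr1 knockdown was -0.27 (SE 0.12, adjusted p from limma 0.215), and with the replicate block (21.3% of all genes called), the 1 setting that called it, the adjusted p was 0.00515 in a range of 0.00515 to 0.505. After Yap knockdown and in the double knockdown the changes were 0.11 and -0.09 and did not pass (adjusted p from limma 0.681 and 0.633).

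Soat1, which esterifies cholesterol for storage, was 3116, 3545 and 3202 in the controls, 2781, 3325 and 3037 after Yap knockdown, 4010, 3950 and 3322 after Wwtr1 knockdown, and 3255, 2746 and 3609 in the double knockdown. Every group overlapped the control. The log2 changes were -0.11, 0.19 and -0.04 (SE 0.11 for each), and none passed (adjusted p from limma 0.637, 0.332 and 0.793).

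**Figure D3:**
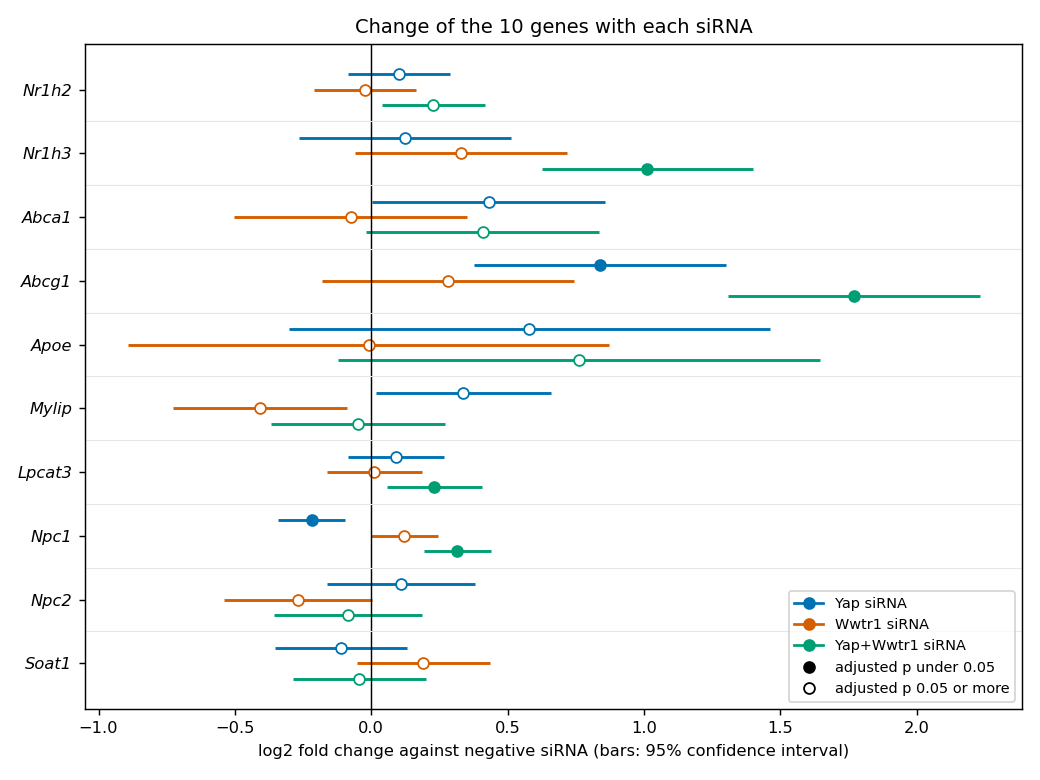
Log2 fold changes of the 10 genes against negative siRNA with 95% confidence intervals from limma, by siRNA; filled points have an adjusted p under 0.05. Abcg1 and Nr1h3 in the double knockdown are the changes farthest from 0, and the intervals of Apoe are the widest.

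The double knockdown was also set against each single knockdown, to ask whether adding the siRNAs of the second target changed the members further. It received the siRNAs of both targets, and no group combined a single target with negative siRNA. In these comparisons and in the interaction, loss of the second factor and a higher siRNA load cannot be told apart. Against Yap siRNA 3 of the 10 members were called, against 13.8% of all genes, and all 3 were higher. Abcg1 was higher by 0.93 on the log2 scale (SE 0.21, 1.91-fold, adjusted p from limma 0.0139), Nr1h3 by 0.89 (SE 0.18, adjusted p 0.00768) and Npc1 by 0.53 (SE 0.057, adjusted p 0.000246). The Abcg1 call was lost without Yap siRNA replicate 3 (0.75, adjusted p 0.0648) and without double knockdown replicate 2 (0.84, adjusted p 0.0531). Against Wwtr1 siRNA the same 3 genes were called, against 19.9% of all genes. Abcg1 was higher by 1.49 (SE 0.21, 2.81-fold, adjusted p from limma 0.000855), called in all 12 fits without 1 library. Nr1h3 was higher by 0.68 (SE 0.18, adjusted p 0.0196) and Npc1 by 0.19 (SE 0.057, adjusted p 0.0324). The Nr1h3 call was lost without Wwtr1 siRNA 2 or 3 or double knockdown 2 or 3 (0.61 to 0.65, adjusted p 0.0502 to 0.0765), and that of Npc1 without any Wwtr1 siRNA library or double knockdown 1 or 3 (0.17 to 0.21, adjusted p 0.0548 to 0.113) and with the compared groups alone (adjusted p 0.0914).

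The LXR partners and cofactors were measured beside the receptors. Of 6 listed, 3 were higher in the double knockdown, where 17.1% of all genes were higher, and none passed with either single siRNA, where 4.8% (Yap) and 8.96% (Wwtr1) of all genes were called. All 6 lay above 0 in each knockdown, with medians of 0.12, 0.16 and 0.31 for Yap, Wwtr1 and both. Rxra, the common RXR, rose by 0.41 (SE 0.13, adjusted p from limma 0.0372), a call lost without any of control 2 and 3, Wwtr1 siRNA 2 and double knockdown 1 and 3 (0.33 to 0.41, adjusted p 0.0517 to 0.134). Ncoa1, a coactivator of nuclear receptors, rose by 0.50 (SE 0.086, adjusted p 0.00111), called in all 12 fits without 1 library. Rxrg, the RXR of muscle and brain, had only 0 to 12.3 normalized counts in the controls and 22.9 to 54.4 in the double knockdown, so its call (adjusted p from limma 0.0338) rests on few reads and was lost without control 3 or double knockdown 2 or 3 (adjusted p 0.0811 to 0.109). Rxrb and the corepressor Ncor1 did not pass. Without double knockdown replicate 3, 1 of the 6 was called, where 34.2% of all genes were called.

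Of 13 other LXR targets, 8 were in the table, and they did not move as one. In the double knockdown 4 were higher and 2 lower, where 17.1% of all genes were higher and 15.6% lower, with a median log2 change of 0.54. Arl4c, a small GTPase tied to cholesterol export, was 324, 421 and 339 in the controls, 852, 659 and 569 after Yap knockdown, 672, 664 and 425 after Wwtr1 knockdown, and 1277, 1442 and 1370 in the double knockdown. All libraries of each knockdown were above the control, by 0.93 after Yap knockdown (adjusted p from limma 0.0209), 0.68 after Wwtr1 knockdown (0.0470) and 1.92 in the double knockdown (3.59e-05). Lpl, the lipase that frees fatty acids from lipoproteins, rose by 0.87 after Wwtr1 knockdown (adjusted p from limma 0.0478) and 1.99 in the double knockdown (0.000129). Abcg4, a close relative of Abcg1, rose by 0.84, 0.82 and 0.75 after Yap, Wwtr1 and double knockdown (adjusted p from limma 0.0236, 0.0138 and 0.00728). Pltp, which moves phospholipid between lipoproteins, rose by 0.82 in the double knockdown (adjusted p from limma 0.0424), where its libraries ran from 2746 to 7009. The double knockdown calls of Arl4c, Lpl and Abcg4 stood in all 12 fits without 1 library, and that of Pltp was lost in 8 of them (without any of control 2 and 3, Yap siRNA 2, Wwtr1 siRNA 1, 2 and 3 or double knockdown 2 and 3, at 0.42 to 0.94 and adjusted p 0.0510 to 0.128). The single knockdown calls were less stable. Those after Yap knockdown were lost for Arl4c without control 1 or 3 or Yap siRNA 1 or 2 (0.77 to 0.95, adjusted p 0.0647 to 0.0948) and for Abcg4 without any control or Yap siRNA library (0.79 to 0.90, adjusted p 0.0561 to 0.0850). Those after Wwtr1 knockdown were lost for Abcg4 without Wwtr1 siRNA 2 or 3 (0.73 and 0.76, adjusted p 0.0537 and 0.0642). Arl4c there lost its call in 8 fits, all but those without Yap siRNA 1 or 3, Wwtr1 siRNA 3 or double knockdown 3 (0.56 to 0.79, adjusted p 0.0510 to 0.173), and Lpl in 9, all but those without Wwtr1 siRNA 3 or double knockdown 2 or 3 (0.64 to 0.99, adjusted p 0.0503 to 0.173).

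The LXR targets of fatty acid synthesis went the other way. Scd, the stearoyl-CoA desaturase, fell by 1.00 after Wwtr1 knockdown (adjusted p from limma 0.00989) and by 1.76 in the double knockdown (8.36e-05). Fasn, the fatty acid synthase, fell by 0.57 (adjusted p from limma 0.00292) and by 0.83 (6.91e-05). Both also answer to sterol regulatory element binding proteins. Srebf1, which encodes one of these and is itself an LXR target, did not pass in any knockdown (0.20 in the double knockdown, SE 0.14). Without double knockdown replicate 3, 3 of these 8 genes were higher and 2 lower, where 34.2% of all genes were called. Over the 12 fits without 1 library the counts after Yap knockdown were 0 to 2 higher (2 with all libraries). After Wwtr1 knockdown they were 0 to 3 higher (3 with all libraries, beside 2 lower). With all libraries 4.8% and 8.96% of all genes were called in these comparisons, and 0.935 to 6.44% and 4.62 to 12% without 1 library.

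Enzymes that make or clear oxysterols, the LXR ligands, were partly in the table (4 of 6). Cyp27a1, which makes 27-hydroxycholesterol, rose by 1.47 in the double knockdown (SE 0.23, adjusted p from limma 0.000539). Cyp7b1, which clears oxysterols, rose by 1.74 (SE 0.29, adjusted p 0.000799). Ch25h and Cyp46a1 did not pass. No enzyme of this list passed with a single siRNA in the main limma fit, which does not pair libraries. In that fit 1 of the 4 after Yap siRNA and 3 of the 4 after Wwtr1 siRNA had an unadjusted p under 0.05. Across all genes 17.1% were higher in the double knockdown, and 4.8% and 8.96% were called with Yap and Wwtr1 siRNA. Oxysterols themselves were not measured.

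Lysosomal genes other than Npc1 and Npc2 were in part higher in the double knockdown. Of 16 genes, 9 were higher and none lower (median log2 change 0.26), against 17.1% and 15.6% of all genes. None passed with either single siRNA, where 4.8% (Yap) and 8.96% (Wwtr1) of all genes were called and 6 and 2 of the 16 had an unadjusted p under 0.05. After Yap knockdown 14 of the 16 still lay above 0, with a median of 0.23 close to that of the double knockdown, and after Wwtr1 knockdown 7 did (median -0.03). Gla (alpha-galactosidase) rose by 0.99 (SE 0.16, adjusted p from limma 0.000585), Scarb2, a lysosomal membrane receptor, by 0.76 (SE 0.12, adjusted p 0.000736) and Ctsl (cathepsin L) by 0.59 (SE 0.11, adjusted p 0.00139). Without double knockdown replicate 3 the count was 7 of 16. It ranged from 4 to 9 over the 12 fits without 1 library, where 23.1 to 34.2% of all genes were called. The part of macrophage content in this list was not tested.

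Among 14 tested genes of sterol transport and ester hydrolysis, 2 were higher and 5 lower in the double knockdown (median log2 change -0.05), against 17.1% and 15.6% of all genes. Abca2, an endolysosomal transporter, rose by 0.59 (adjusted p from limma 0.000439), and Stard3, a lysosomal sterol carrier, rose by 0.31 (0.0268). Cav1 (caveolin 1) fell by 0.78 (adjusted p from limma 0.000539) and Stard4, a soluble sterol carrier, fell by 0.82 (0.00413). Lcat, which esterifies cholesterol on HDL, was 157 to 350 in the double knockdown and 349 to 391 in the controls, and was lower by -0.78 (adjusted p from limma 0.0256). Abca2 was also higher and Cav1 lower after Yap knockdown (0.46 and -0.55, adjusted p from limma 0.0146 and 0.0285), and Stard4 was lower after Wwtr1 knockdown (-0.94, adjusted p 0.00687). Calls of 4 of these values were lost when 1 library was left out, those of Stard3 without control 2 or 3 or double knockdown 2 or 3 (0.27 to 0.32, adjusted p 0.0615 to 0.0877), Lcat without control 1 or 3 or double knockdown 1 or 3 (-0.78 to -0.55, adjusted p 0.0570 to 0.0977), and, after Yap knockdown, Abca2 without control 3 or Yap siRNA 1 or 2 (0.37 to 0.44, adjusted p 0.0570 to 0.0717) and Cav1 without control 1 or 3 or Yap siRNA 1 or 2 (-0.53 to -0.45, adjusted p 0.0795 to 0.119).

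**Figure D4:**
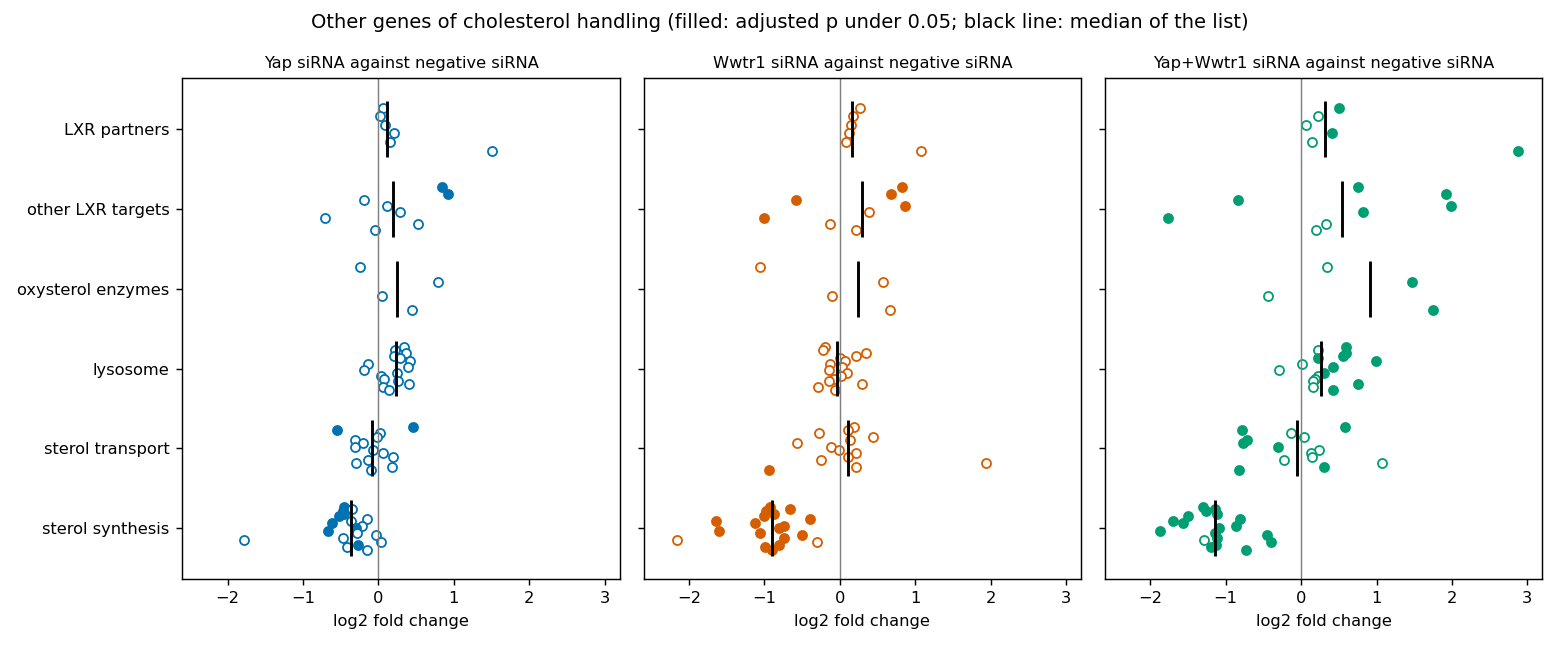
Log2 fold changes against negative siRNA of genes in 6 lists of cholesterol handling, one panel per siRNA; each point is a gene, filled points have an adjusted p under 0.05 and black lines are list medians. Sterol synthesis genes lie left of 0 but for 1 of 19 after Yap knockdown, and all 6 LXR partners and 15 of 16 lysosomal genes lie right of 0 in the double knockdown.

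The genes of cholesterol synthesis, which cells lower when sterol is plentiful, were called in 1 direction. Of 19 genes, 8 were lower after Yap knockdown, 17 after Wwtr1 knockdown and 18 in the double knockdown, and none was higher, where 1.78%, 3.96% and 15.6% of all genes were lower. Their median log2 changes were -0.37, -0.90 and -1.14. The count after Yap knockdown ran from 1 to 11 over the 12 fits without 1 library, where 0.935 to 6.44% of all genes were called. That of the double knockdown ran from 17 to 18, where 23.1 to 34.2% were.

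For each member the genes most alike across the 12 libraries were found by Pearson's r of log2 values among 10102 genes with a mean of at least 100. The points share 4 siRNA groups, so any gene that follows the groups scores high. Abcg1 was most like Ak1 (r 0.968), Adamts4 (0.962) and Tle4 (0.960), and Nr1h3 most like Lrfn3 (0.948), Pnkd (0.942) and Epb41l1 (0.940). Apoe was most like Rab15 (0.952), Ifi30 (0.945) and Ctsd (0.936). Ifi30 encodes a lysosomal reductase and Ctsd encodes cathepsin D. Npc1 was most like Gna12 (0.942), Slit2 (0.941) and Pfkfb3 (0.932), and Lpcat3 most like Glmp (0.959), Ifitm1 (0.952) and Grina (0.946). The nearest genes of the other 5 members had r from 0.896 (Appbp2 to Soat1) to 0.951 (Spns1 to Nr1h2), with Postn nearest to Abca1 (0.904), Eif2ak1 to Mylip (0.897) and Mrps34 to Npc2 (0.923).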

How the data were processed

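RNA was sequenced from 12 libraries in 4 siRNA groups, with groups and replicate numbers taken from the sample titles. The authors trimmed reads with Trim Galore 0.6.5, aligned them to the rat build rn6 with HISAT2 (version 2 in the submitters' processing notes), assembled transcripts with StringTie and compared groups with DESeq2. Each deposited value is a signal, the read count of a gene over the size factor of its library. All were whole multiples of 1 step per library within 0.02, which gave 33.9 to 41.1 M reads each. The authors' fold changes and p-values were not used. Whether counting used strand is not given in the sources used here.

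One limma 3.58.1 fit (R 4.3.3, eBayes with trend) on log2(normalized count + 1) covered 11871 genes with a mean of at least 10. P-values are two-sided, adjusted over these genes by Benjamini-Hochberg, with a threshold of 0.05. The members and lists were chosen with earlier results of these data known. Named genes were all members, Yap1 and Wwtr1, up to 3 called rises and 3 falls of each pathway list in each comparison with the controls, defining macrophage markers and the 3 most alike genes. A few uncalled list genes were named after their values were seen. Deviations of same-numbered libraries from their group means correlated at 0.104 to 0.276 among negative, Yap and Wwtr1 siRNA, which was taken as pairing. With the double knockdown the correlations were -0.127 to 0.180. These ranges overlap and libraries of different numbers were not compared, so pairing of the double knockdown was neither shown nor excluded. The fits were repeated at pseudocounts of 0.1 and 10, with no filter or a mean of 100, scaled by TMM or upper quartiles, by edgeR 4.0.16 or DESeq2 1.42.0 from the recovered reads, for the compared groups alone, with replicate blocks, with no trend, with a macrophage score (mean log2 of its markers) as covariate and without each library. Replicates differed by more than sampling noise (chi-square per gene of at least 19.7). Double knockdown replicate 3 differed most, at 120 and 124 per gene from replicates 1 and 2. Every other pair within a group was at 19.7 to 49.7. The steps were tested on simulated counts. Results of 2 listed genes are not reported here.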

Additional observations from a re-analysis of the deposited data

Results flagged for a closer look

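Npc1 was picked out because its change in the double knockdown differed from the sum of both single changes by the interaction test. The difference was 0.41 on the log2 scale (SE 0.080, adjusted p from limma 0.0399). Npc1 fell with Yap siRNA and rose in the double knockdown, and 1 of the 12 fits that left out 1 library kept the call. No other member passed this test.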

How the results depend on the processing

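Values of the 10 members were recomputed under 25 other settings. The double knockdown against the controls had 3 to 5 calls among them without 1 library (12 such fits, 23.1 to 34.2% of all genes called). Those of Yap against Wwtr1 siRNA stayed at 2 (3.66 to 11.9% of all genes). The count for Yap siRNA against the controls was 1 with upper-quartile scaling, 1 with the compared groups alone, 0 with no trend and 0 to 2 without 1 library, where 4.4%, 3.9%, 2.48% and 0.935 to 6.44% of all genes were called. The count for the double knockdown against Wwtr1 siRNA was 1 to 4 without 1 library (10.8 to 19.7% of all genes). The interaction count was 0 with no trend (0.505% of all genes) and 0 to 1 without 1 library (0.261 to 1.35%).

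With the replicate block over the paired groups (negative, Yap and Wwtr1 siRNA) 4 members were called for Yap siRNA against the controls, 1 for Wwtr1 siRNA against the controls and 7 for Yap against Wwtr1 siRNA, where it called 16%, 21.3% and 22.6% of all genes. The replicate block was also fitted over all 12 libraries, where pairing of the double knockdown is not established. It gave Nr1h2 in the double knockdown an adjusted p from limma of 0.0220 against the controls and 0.0214 against Wwtr1 siRNA. For Npc2 in Yap against Wwtr1 siRNA it gave 0.0231. The blocks lost or gained no other member call beside those given here and in the text.

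None of the called values changed sign. Log2 changes near 0 did, over the fits without 1 library. For Yap siRNA against the controls Nr1h3 ran from -0.021 to 0.26 and Npc2 from -0.023 to 0.20. For Wwtr1 siRNA Nr1h2 ran from -0.092 to 0.032, Abca1 from -0.21 to 0.10, Apoe from -0.19 to 0.30 and Lpcat3 from -0.031 to 0.052. In the double knockdown Mylip ran from -0.14 to 0.088, Npc2 from -0.14 to 0.0049 and Soat1 from -0.13 to 0.062. Apoe after Wwtr1 siRNA was 0.42 with the macrophage covariate, and Lpcat3 was -0.0057 with upper-quartile scaling. The cause was not tested. Depth was at least 33.9 M reads in each library.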

Other observations

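Markers of other heart cells were counted beside the share of all genes called, which was 4.8% for Yap siRNA, 8.96% for Wwtr1 siRNA and 32.8% in the double knockdown (17.1% higher). Of 10 endothelial markers, 5 were higher in the double knockdown (median log2 change 0.85), 1 with Wwtr1 siRNA and 0 with Yap siRNA by limma. Without double knockdown replicate 3 the count was 3, where 34.2% of all genes were called. Of 11 cardiomyocyte markers in the table, 3 were higher in the double knockdown and none passed with a single siRNA. Among 7 mural cell markers (pericytes and smooth muscle), 3 were higher and 2 lower in the double knockdown, 1 was lower after Yap siRNA and 1 higher after Wwtr1 siRNA. Among 10 fibroblast markers 4 were higher and 2 lower in the double knockdown, 1 was higher after Yap siRNA and 0 passed after Wwtr1 siRNA.

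The 10 interferon-induced genes lay above the controls in each knockdown. Of them 10, 9 and 10 were called for Yap siRNA, Wwtr1 siRNA and both, where 4.8%, 8.96% and 32.8% of all genes were. Their median log2 changes were 5.20, 5.26 and 6.54. In the comparisons between knockdowns 0 were called, where 8.79%, 13.8% and 19.9% of all genes were. Over the 12 fits that left out 1 library 4 to 10 were called with Yap siRNA (0.935 to 6.44% of all genes) and 9 to 10 with Wwtr1 siRNA (4.62 to 12%).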
